A study of Canis lupus familiaris with 20 samples.

Results

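CMT-U309 is a cell line from a canine spindle-cell mammary tumour, and it was 1 of 5 canine mammary cancer lines that were grown together with canine macrophages. The co-culture of this line is described here from 4 of the 20 arrays of the series, chosen by their titles: 2 arrays of the cancer cells and 2 of the macrophages sorted from it. The study asked how the presence of the other cell type changes gene expression in tumour cells and in macrophages. Macrophages were grown from CD64+ blood monocytes of healthy dogs, which were laid over cancer cells that had been stained with the dye CMTMR. After at least 72 h the co-culture was harvested with trypsin and sorted into stained cancer cells and unstained macrophages.

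Each array carried RNA of the sorted, co-cultured cells in one dye and RNA of the same kind of cells grown alone (mono-culture) in the other. For the cancer cells the mono-culture was CMT-U309, and for the macrophages it was macrophages from the same kind of monocytes. The other 4 co-cultures used CMT-U27 (a simple carcinoma line), P114 (an anaplastic cancer line) and the adenocarcinoma lines CMT-W1 and CMT-W2, and each has the same 4 arrays. Mono-cultures were scraped and were not sorted, so the effect of trypsin and sorting cannot be told apart from that of the co-culture. How many macrophage mono-cultures were grown is not stated, so the 5 macrophage comparisons may share 1 control.

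Spindle-cell mammary tumours are made of elongated cells that resemble connective tissue cells, and such cells are known for making collagens and other matrix proteins. Macrophages recruited to tumours take up debris, present antigen and secrete chemokines, cytokines and proteases, and tumour cells answer with signals that alter the macrophages. Genes that mark macrophages are scavenger receptors such as CD163, Fc receptors and lysosomal proteases, while epithelial tumour cells are known by their cell junction proteins.

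The 2 arrays of a pair hold the same RNAs with the dyes exchanged and count as 1 replicate, although the labels call them biological replicates. CMT-U309 therefore has 1 value for each population, and no test of its own change is possible. A gene is said to have risen or fallen where its co-culture signal was at least 3-fold above or below the mono-culture signal on both arrays. Ratios are log2 of co-culture over mono-culture, and a pair of values gives the array with the co-culture in Cy3 first and the array with the co-culture in Cy5 second. The symbols of 1045 genes could be matched, for 1648 of 43603 probes, so the named genes are a small part of the 38230 genes on the array.

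Spots well above background in the channel of the co-cultured cells made up 51.0% to 96.3% of an array over the 20 arrays. The highest share was on the Cy5 array of the CMT-U309 cancer cells, meaning the one that carried the co-culture in Cy5. That array also had 9870 of its 43803 spots (22.5%) marked as outliers by the scanner software, against 110 on its dye-swap partner and 6 to 1438 on the other 18 arrays, the most on the Cy5 array of the CMT-W2 cancer cells from the same slide. The marked spots were left out, which removed 7179 genes of CMT-U309 that could otherwise be measured, 215 of them with a symbol. The genes removed had a median log2 ratio of -0.72 on the marked array and of -0.75 on its partner, against -0.07 and -0.11 for the genes that stayed. The loss thus took more genes with a low ratio than with a high one. The CMT-U309 and CMT-W2 arrays share a slide in each population, and no other co-culture lies on these slides, so the CMT-W2 values given beside those of CMT-U309 are also the comparison within a slide.

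The mono-cultured line was first set against its label with COL1A1, the chain of type I collagen taken as the marker of the line, and with other mesenchymal and epithelial markers. COL1A1 had a log2 level of 9.69 in CMT-U309 against 7.62 in CMT-U27, 8.07 in P114, 8.98 in CMT-W1 and 8.38 in CMT-W2. The level was highest in CMT-U309, but the difference from the mean of the other 4 lines, 1.42, did not pass limma's test (adjusted p = 0.992). DCN, which encodes the matrix proteoglycan decorin, had a log2 level of 12.12 in CMT-U309 against 5.32 in P114 and 6.79 in CMT-W2, and it was not well above background in CMT-U27 and CMT-W1. Of the 9 mesenchymal markers that could be tested, 3 (COL1A1, SNAI2 and SERPINH1) were highest in CMT-U309, where 9.50% of all genes tested were highest, and 1 was lowest, where 31.7% of all genes were lowest. SNAI2, a transcription factor that represses epithelial genes, was at 11.24 in CMT-U309 and at 5.99 to 11.09 in the other 4 lines. Summed over the 12 mesenchymal markers on the array, the level on the linear scale was 107757 in CMT-U309. It was 151420 in CMT-W2, 101904 in P114, 33246 in CMT-W1 and 23838 in CMT-U27, so CMT-U309 was not highest by this sum.

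Epithelial markers were also present in the line. MUC1, a surface mucin, had a log2 level of 9.59 in CMT-U309, below P114 at 10.65 and above the 5.63 to 7.24 of the other 3 lines. DSG3, a cadherin of desmosomes, was at 9.01 in CMT-U309, at 10.30 in CMT-U27 and at 10.85 in P114, and it was not well above background in CMT-W1 and CMT-W2. Of the 4 epithelial markers tested, none was highest or lowest in CMT-U309, and their median difference from the other lines was 0.88. In 19386 genes, limma called 0 differences in level at an adjusted p under 0.05 (0.00%), with 150 at an unadjusted p under 0.05. Across 15218 genes the mono-cultured CMT-U309 profile had a Pearson correlation of 0.972 with P114, 0.899 with CMT-U27, 0.857 with CMT-W2 and 0.590 with CMT-W1. Each level is read from 1 channel of its own arrays, and genes are not independent replicates.

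**Figure D1:**
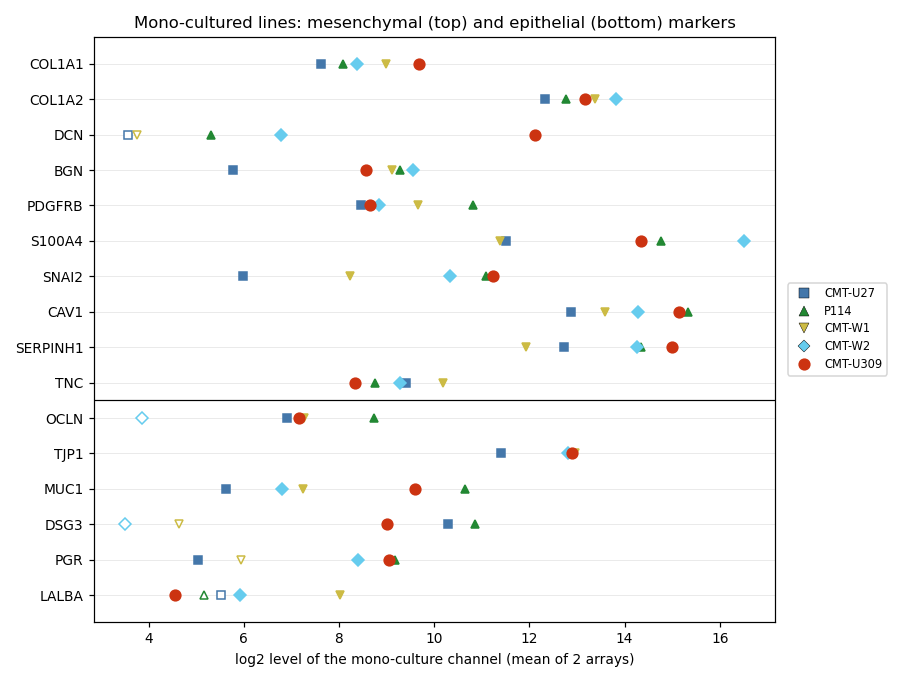
Log2 level of mesenchymal markers (top) and epithelial markers (bottom) in the 5 mono-cultured lines (x axis, mean of the mono-culture channel over the 2 arrays), with 1 symbol per line and hollow symbols where the probe was not well above background on either array. DCN and COL1A1 are highest in CMT-U309, at 12.12 and 9.69, while the epithelial markers of CMT-U309 lie among those of the other lines, apart from LALBA, the milk protein alpha-lactalbumin, which is lowest in CMT-U309.

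In the sorted CMT-U309 cancer cells 24155 genes could be measured. Of these, 1929 (7.99%) rose at least 3-fold on both arrays and 1684 (6.97%) fell. In the other 4 lines 819 to 2876 genes rose and 386 to 2404 fell, with CMT-U27 at both upper ends. Both directions were thus nearly balanced in CMT-U309, while CMT-W2 had 1230 genes up and 386 down. Across genes the 2 CMT-U309 arrays had a Pearson correlation of 0.873, and 14.3% of the genes went opposite ways on them. Of the genes with a symbol, 99 of 711 rose and 56 fell. With the outlier spots kept 1932 genes rose and 1855 fell, and with normexp background correction and loess in place of the deposited ratios 1046 rose and 889 fell.

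**Figure D2:**
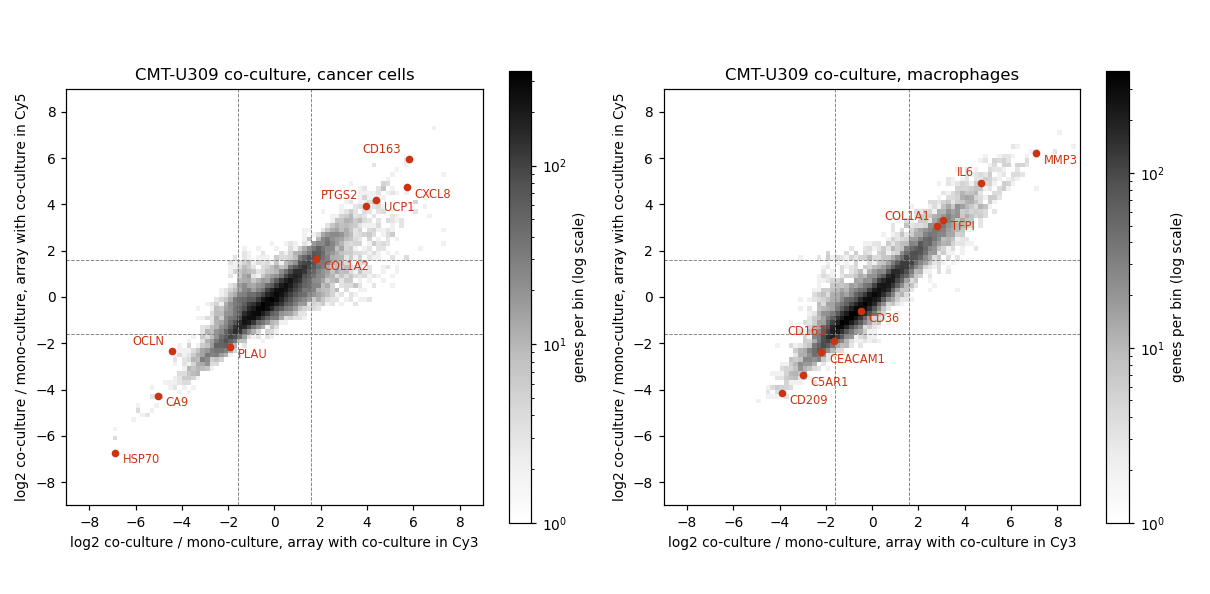
Log2 ratio (co-cultured over mono-cultured cells) on the Cy3 array of CMT-U309 (x axis) against its Cy5 array (y axis), named by the dye of the co-culture, for the cancer cells (left) and the macrophages (right), with the number of genes per bin on a log grey scale, dashed lines at 3-fold, and values past the ends of the axes drawn at the edge. Named genes are red points. Genes of both arrays lie along the diagonal, more tightly in the macrophages (Pearson correlation 0.935) than in the cancer cells (0.873).

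Among genes with a symbol, those with the highest ratios in the CMT-U309 cancer cells were a prostaglandin receptor, costimulatory and scavenger receptors, and inflammatory cytokines. PTGER2, a receptor for prostaglandin E2, had log2 ratios of 7.85 and 6.04, and CD80, a ligand that costimulates T cells, had 5.95 and 6.96. Neither was well above background in the mono-cultured line, so on these probes PTGER2 was at least 34.4-fold higher in the co-culture and CD80 at least 42.0-fold. Another CD80 probe gave a smaller log2 ratio of 2.43 in CMT-U309, below the 3.55 to 6.72 of the other lines. A bound of this kind sets the mean level of the bright culture against the dim one's mean of, per array, the lowest signal well above background or its own signal, whichever is higher. IFNB1, the type I interferon beta, had 6.52 and 4.33 and was likewise dim in the mono-culture, against 2.31 to 4.69 in the 3 other lines where it was measured.

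CD163, the haemoglobin scavenger receptor of macrophages, had log2 ratios of 5.80 and 5.97 in the CMT-U309 cancer cells. The cytokines IL1A (5.70 and 5.82) and IL1B (5.75 and 4.81) and the lysosomal protease CTSS (4.92 and 5.65) followed. CD163 in CMT-U309 lay within the range of the other lines, which had 7.13 in CMT-U27, 7.03 in P114, 2.11 in CMT-W1 and 7.28 in CMT-W2, although its other probe gave 4.07 in CMT-U309 and 5.27 to 5.84 elsewhere. CTSS had a mean of 5.28 in CMT-U309, level with 5.32 in CMT-W1 and under the 5.68 to 6.81 of the other 3 lines. CXCL8, the chemokine that attracts neutrophils, had 5.71 and 4.75 in CMT-U309 and 7.24 to 8.93 in the other lines, so it rose in CMT-U309 by less than in any of them. Its difference from the other 4 was -3.04 (SE 0.74, limma adjusted p = 0.556).

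As a group, macrophage and monocyte markers rose in the CMT-U309 cancer cells in 8 of the 11 that could be measured, with a median log2 ratio of 3.38, against 7.99% of all genes and a median of -0.09 over all genes. Of the 13 markers on the array the other 2 (CD209 and FCER1G) were lost to outlier marks. FCGR1A, the Fc receptor known as CD64, rose with 4.31 and 4.29, and C5AR1, the receptor for the complement fragment C5a, rose with 5.15 and 3.59. None of the 11 lay above the other 4 lines and 3 lay below them, where 21.8% of all genes tested lay above and 31.1% below. The summed level of the 13 markers went from 33432 in the mono-cultured line to 181548 in the sorted cancer cells, on the linear scale of the array, against 930678 in the mono-cultured macrophages. In the sorted cancer cells of CMT-U27, P114, CMT-W1 and CMT-W2 the sum was 870608, 77894, 28262 and 136522. The CMT-U27 sum was above the 241438 of the macrophages sorted from the same co-culture. All 13 markers were well above background on both arrays in the mono-cultured CMT-U309 too, against 4 to 8 in the other lines. In the mono-culture channel, however, 81.6% and 84.5% of all spots were so on the CMT-U309 cancer cell arrays. The other cancer cell arrays had 40.8% to 69.2%. The part of macrophage RNA in the sorted cancer cells was not tested.

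Chemokine ligands rose in 8 of the 10 measured (7.99% of all genes), with a median of 3.44, while 6 of the 9 compared lay below all other lines (31.1% of all genes). CCL2, which attracts monocytes, had 4.29 and 4.32 in CMT-U309 against 4.83, 4.55, 4.74 and 5.87 in CMT-U27, P114, CMT-W1 and CMT-W2. CCL3 (3.96 and 4.39) was likewise lowest in CMT-U309, with 4.97 or more in each other line. CXCL10, an interferon-induced chemokine, rose with 5.23 and 3.20 and lay among the other lines, which ranged from -0.30 to 6.91. All 3 costimulatory genes rose, as did 7 of 12 genes of antigen presentation (7.99% of all genes), among them the class II chain DLA-DRA (3.37 and 2.86) and the class I chain DLA88 (2.81 and 2.95).

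Among Toll-like receptors and their partners 2 of 6 rose (7.99% of all genes), TLR2 (4.84 and 4.99) and TLR4 (3.03 and 2.83), which sense bacterial lipoproteins and lipopolysaccharide. Interferon-induced genes rose in 5 of 8 with a median of 2.22, and 4 of the 8 lay below the other lines, a share not far from the 31.1% of all genes. MX1, an antiviral GTPase, had 4.58 and 4.17 in CMT-U309 and 3.86 to 6.51 elsewhere. The viral RNA sensors OAS2, picked out after its values had been seen, and OAS3 had -0.56 and -0.38, and -1.15 and -1.04, in CMT-U309, while they lay between 0.58 and 5.18 in every other line where they were measured. OAS2 differed by -3.90 from the mean of the other 4 (SE 1.49, limma adjusted p = 0.676).

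Cytokines and growth factors rose in 6 of 22 (7.99% of all genes) and fell in 1 (6.97%), and 10 of the 20 compared lay below the other lines (31.1%). IL6 rose with 4.14 and 4.12, against 6.07 in P114, 4.88 in CMT-W1 and 4.86 in CMT-W2. Its other probe gave 4.55 in CMT-U309, within the 3.15 to 5.48 of the other lines. The member that fell was IL10, an anti-inflammatory cytokine named after its values were seen, with -1.82 and -1.62. Of the prostaglandin and leukotriene genes 4 of 8 rose (7.99% of all genes), among them PTGS2, the inducible cyclooxygenase. PTGS2 had 3.96 and 3.95 in CMT-U309 and 9.95, 6.34, 7.93 and 7.67 in CMT-U27, P114, CMT-W1 and CMT-W2. The ratio in CMT-U309 was thus positive but lowest of the 5, with a difference of -4.02 (SE 1.21, limma adjusted p = 0.671).

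Among genes with a symbol, the lowest ratios in the CMT-U309 cancer cells belonged to a chaperone, a steroid enzyme and several proteins of cell junctions. HSP70, a heat shock chaperone, fell with log2 ratios of -6.89 and -6.73, and its 3 other probes gave -5.02, -4.75 and -4.34. In CMT-U27, P114, CMT-W1 and CMT-W2 it was at -3.16, -6.41, 2.69 and -0.35, so P114 was close to CMT-U309. On the 3 other probes the lowest of the other lines was at -5.37 to -5.08, below CMT-U309. HSD11B1, which regenerates active glucocorticoid, fell with -7.60 and -5.36. CA9, a surface carbonic anhydrase induced by low oxygen, fell with -5.03 and -4.27. The other lines had -2.37, -0.64, 0.36 and -0.29 and did not overlap with CMT-U309. Of all genes measured in all 5 lines, 18.5% had both CMT-U309 arrays below all 8 others. MT1E, a metal-binding metallothionein, fell with -3.74 and -3.08.

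Epithelial junction and adhesion genes were among those that fell. DSG3 fell with -7.23 and -5.21, against 1.58 in CMT-U27 and -2.38 in P114. OCLN, the tight junction protein occludin, fell with -4.45 and -2.33, against -0.18, -0.15 and 0.45 in CMT-U27, P114 and CMT-W1. No array of the other lines reached down to the CMT-U309 values of DSG3 or OCLN, which covers only the lines given here. Of all genes measured in all 5 lines, 18.5% had both CMT-U309 arrays below all 8 others. DSG3 and OCLN were compared with fewer lines, so this share is not matched to them. F2RL1, a protease-activated receptor, had -6.02 and -2.46, against -1.10 to -0.95 in the other 3 lines where it was measured. In the sorted cancer cells the log2 levels were low, 2.79 for DSG3 and 4.46 for F2RL1, so the size of these falls is uncertain.

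Of the 7 epithelial markers measured in CMT-U309, 3 fell, DSG3 and OCLN among them, and none rose, against 6.97% of all genes that fell. All 4 that could be compared, OCLN, MUC1 and TJP1 among them, lay below the other lines, where 31.1% of all genes did, with a median difference of -2.40. MUC1, at -1.64 and -1.39, and TJP1, at -1.27 and -0.62, did not reach 3-fold. The summed level of the 9 epithelial markers on the array went from 15748 in the mono-cultured CMT-U309 to 5743 in the sorted cancer cells. Fewer cells of a kind and less RNA per cell cannot be told apart in such bulk RNA.

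Type I collagen stood above the other lines. COL1A1 had 1.87 and 0.94 in the CMT-U309 cancer cells, which is not 3-fold on both arrays, against 0.16, 0.14, 0.13 and -0.23 in CMT-U27, P114, CMT-W1 and CMT-W2. COL1A2, the other chain of type I collagen, rose with 1.78 and 1.65, against -0.81, -0.54, -0.23 and -0.37. For both chains each CMT-U309 array lay above all 8 arrays of the other lines, where 12.6% of all genes did. The 3 other probes of COL1A1 gave 1.65, 1.87 and 4.63 in CMT-U309, and the 5 other probes of COL1A2 gave 2.12 to 3.29. The difference from the other 4 was 1.35 (SE 0.53, limma adjusted p = 0.676) for COL1A1 and 2.20 (SE 0.54, adjusted p = 0.573) for COL1A2. Of 5 collagen genes measured, 3 lay above the other lines, where 21.8% of all genes tested did. The third was COL7A1 of the skin anchoring fibrils, at 2.20 and 1.43. Another 3 genes of the collagen list were lost to outlier marks.

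Several cell cycle genes had ratios above those of the other lines. ASPM, a mitotic spindle protein named for its difference from them, rose with 3.25 and 2.77, against -6.35, 0.48, -0.58 and -2.58 in CMT-U27, P114, CMT-W1 and CMT-W2. BIRC5, the mitotic protein survivin, had 2.95 and 1.38, against a range of -1.74 to 0.68. BRCA1, which acts in homologous recombination repair and was named for the same reason, had 1.64 and 1.56, just under 3-fold on the second array, against -3.73, -0.64 and -1.23 in CMT-U27, CMT-W1 and CMT-W2.

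Of the 7 genes of the cell cycle and DNA replication list compared, 4 lay above all other lines (21.8% of all genes), 1 lay below (31.1%), and the median difference was 2.88. ASPM, BRCA1 and BIRC5 are among these 4. MYC, a growth-promoting transcription factor, did the opposite and fell with -1.94 and -2.26. The 4 cytosolic ribosomal protein genes were all above the other lines: RPL27 (1.92 and 2.11) and RPL23 (1.54 and 1.63) were highest and lowest of them. Of these 4, RPL27 and 1 other passed 3-fold on both arrays. In mono-culture 3 of the 4 had their lowest level in CMT-U309, where 31.7% of all genes were lowest. Their median level difference from the other lines was -1.70, against -0.33 over all genes. For the 7 cell cycle genes it was -0.72, with 2 lowest. The higher ratios thus start partly from low mono-culture levels, most of all for the ribosomal genes. CYCS, the respiratory protein cytochrome c, rose with 3.25 and 3.36, above the range of -0.12 to 2.29 in the other lines.

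The difference of UCP1 from the other lines was the highest of the named genes. It encodes the uncoupling protein of brown fat mitochondria and rose with 4.41 and 4.18 in CMT-U309, against -1.49 in CMT-U27, -1.87 in P114 and 0.33 in CMT-W2. The difference was 5.31 (SE 0.97, limma adjusted p = 0.517), and the CMT-U309 arrays lay above all others. Of all genes measured in all 5 lines, 12.6% had both CMT-U309 arrays above all 8 others. UCP1 was compared with fewer lines, so this share is not matched to it. HACD1, an enzyme of fatty acid elongation, had 4.44 and 2.65 against a range of -1.21 to 1.59. HACD1 was not well above background in the mono-culture.

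F3 and PLAU, genes of blood clotting and plasminogen activation, had negative ratios in CMT-U309 and positive ones in every other line. F3, the tissue factor that starts coagulation, had -1.50 and -1.43 in CMT-U309, against 3.19, 1.29, 4.28 and 4.79 in CMT-U27, P114, CMT-W1 and CMT-W2. PLAU, the urokinase that activates plasminogen, fell with -1.93 and -2.17, against 4.56, 2.21, 1.08 and 2.80. The differences were -4.85 (SE 1.25, limma adjusted p = 0.595) for F3 and -4.72 (SE 1.19, adjusted p = 0.586) for PLAU. BIRC3, an inhibitor of apoptosis, rose with 1.80 and 1.67, but less than in CMT-U27, P114 and CMT-W2 (4.12 to 4.81).

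None of these differences passed the test across all genes. limma compared the CMT-U309 ratio with the other 4 over 19386 genes and called 0 at an adjusted p under 0.05 (0.00%), with 1386 at an unadjusted p under 0.05 and a smallest adjusted p of 0.197. The test rests on 1 pair against 4 and takes CMT-U309 to vary like the other lines, and an exact permutation test with these numbers cannot go below p = 0.2. Among genes measured in all 5 lines CMT-U309 was lowest in 32.2% and highest in 20.4%, against 12.3% to 21.3% and 11.1% to 25.2% for the other lines. CMT-U309 was thus lowest more often than any other line, and the median difference over all genes was -0.17.

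**Figure D3:**
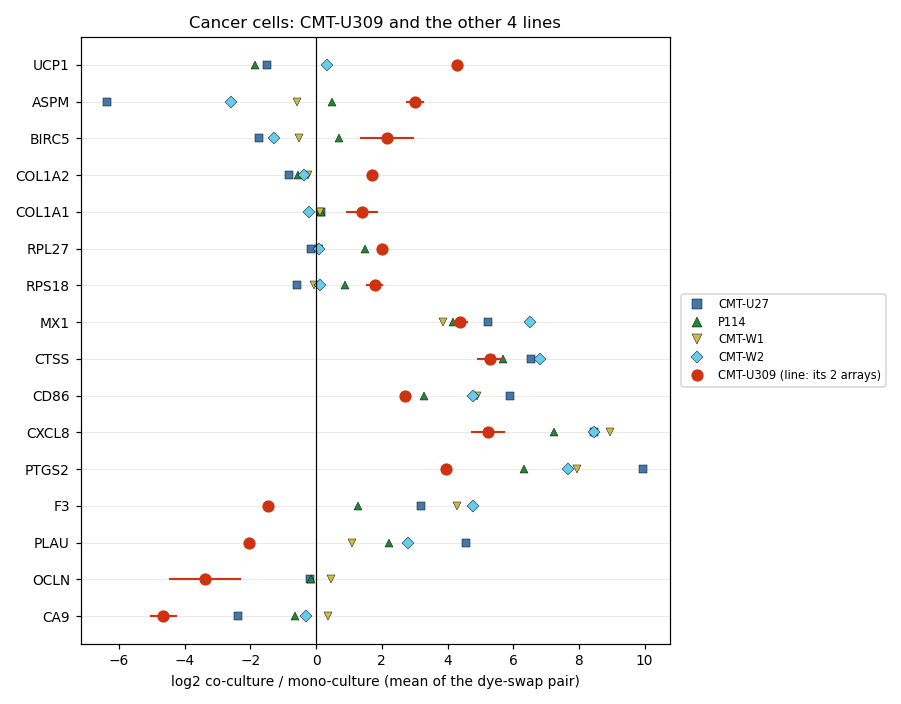
Mean log2 ratio of the dye-swap pair (x axis, co-cultured over mono-cultured cells) of 16 genes in the cancer cells of the 5 lines, with 1 symbol per line and a horizontal line that spans the 2 arrays of CMT-U309. UCP1, ASPM and COL1A2 lie to the right of the other lines in CMT-U309, and PTGS2, F3, PLAU and CA9 lie to the left.

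Genes that changed in CMT-U309 were compared with those of each other line. Of the genes measured in both lines, 635 of the 1690 that rose in CMT-U309 also rose in P114, which is 37.6% of the CMT-U309 genes and 62.9% of the P114 genes, where 4.70% of all genes measured in both rose in P114. For CMT-U27 the shared genes were 703 (41.2% and 28.6%), for CMT-W2 503 (30.8% and 45.0%) and for CMT-W1 244 (20.7% and 33.7%). Of all genes measured in both, 11.99% rose in CMT-U27, 5.64% in CMT-W2 and 4.40% in CMT-W1. A further 152 genes (8.91%) that rose in CMT-U309 fell in CMT-U27, against 66 in CMT-W2, 52 in CMT-W1 and 3 in P114. Among genes that fell, CMT-U309 shared 405 with P114 (24.2% and 74.6%) and 711 with CMT-U27 (44.7% and 37.0%), but 57 with CMT-W2 (3.73% and 16.3%) and 46 with CMT-W1 (3.35% and 12%). The shares of all genes that fell were 2.52% in P114, 9.37% in CMT-U27, 1.77% in CMT-W2 and 2.33% in CMT-W1. Of 1105 genes that rose in CMT-U309 and were measured in all 5 lines, 481 rose in no other line and 163 in all. Of 1330 genes that fell in CMT-U309 and were measured in all 5 lines, 598 fell in no other line and 6 fell in all. Across 15564 genes the CMT-U309 ratio correlated with that of P114 at 0.784, CMT-U27 at 0.508, CMT-W2 at 0.395 and CMT-W1 at 0.284 (Pearson, genes are not independent).

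In the macrophages sorted from the CMT-U309 co-culture 26898 genes could be measured. Of these 3493 (13.0%) rose and 2152 (8.0%) fell, against 3031 to 3711 up and 1748 to 2530 down in the other co-cultures. The 2 arrays had a Pearson correlation of 0.935, with 9.43% of genes going opposite ways. With normexp background correction and loess in place of the deposited ratios 1765 rose and 661 fell, so that 72.8% of the changed genes rose in place of 61.9%.

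The highest ratios in these macrophages, among genes with a symbol, belonged mostly to genes that were dim in macrophages alone. MMP3, a matrix metalloproteinase, had 7.09 and 6.20 and was at least 22.2-fold higher in the co-culture. DZIP1, a protein of cilia, had 5.82 and 5.71 (at least 46.1-fold), and ABCC5, an export pump, was at least 39.2-fold higher. PTGER2 had 5.30 and 5.88 (at least 20.5-fold), and the transcription factor TFAP2B had 6.07 and 5.00 (at least 10.6-fold). KITLG, the ligand of the KIT receptor, rose with 5.50 and 6.07 and CA2, a carbonic anhydrase, with 5.42 and 6.03.

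Mesenchymal markers rose in 7 of the 11 measured in the CMT-U309 macrophages, with a median of 2.87, against 13.0% of all genes and a median of -0.23. SERPINH1, the collagen chaperone, rose with 5.15 and 5.36, within the 4.28 to 6.47 of the other co-cultures, although its 2 other probes gave 0.77 and -0.10, below 3-fold. CAV1, the main protein of caveolae, rose with 5.06 and 4.98, just below their 5.21 to 6.79. Type I collagen lay above them. COL1A1 rose with 2.83 and 3.08, against -0.21, 0.34, -0.54 and -0.71 in the macrophages of CMT-U27, P114, CMT-W1 and CMT-W2, and COL1A2 rose with 2.78 and 2.96, against -0.66, 0.12, 0.91 and -0.21. Each CMT-U309 array lay above all 8 arrays of the other co-cultures for both chains, where 8.05% of all genes did. The COL1A1 difference was 3.23 (SE 0.65, limma adjusted p = 0.999). The other 3 COL1A1 probes gave 2.05 to 6.38 in CMT-U309, in each case above the other co-cultures, although these reached 2.82 to 3.76 on the probe with the highest value. The 5 other COL1A2 probes gave 4.46 to 6.45 in CMT-U309. On 4 of them CMT-U309 lay above the other co-cultures, and on the fifth it was at 4.91, within their 3.43 to 6.05. On 3 of the 5 the mean of the other co-cultures was itself 3.48 to 4.67, so the gap seen on the brightest probe was not shared by all probes.

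Macrophage markers had negative ratios in the CMT-U309 macrophages, and most were lower still in the other co-cultures. Of the 13 markers 6 fell (8.0% of all genes) and none rose, with a median log2 ratio of -1.58, while the median of the mean over the other 4 co-cultures was -3.66. Of the 13, 11 lay above all other co-cultures, where 15.1% of all genes tested did. CD163 fell with -1.66 and -1.90, against -4.09, -4.73, -8.61 and -8.03 with CMT-U27, P114, CMT-W1 and CMT-W2. CTSS had -0.11 and -0.35, against -1.03, -3.12, -5.59 and -4.64. ADGRE1, an adhesion receptor of macrophages, had -0.35 and -0.68, against -3.19 to -2.19. CD209, a lectin of macrophages and dendritic cells, fell with -3.91 and -4.15 and was nearly level with CMT-U27 at -4.17. The CD163 difference was 4.59 (SE 1.75, limma adjusted p = 0.999).

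The summed level of the 13 markers in macrophages went from 930678 in the mono-culture to 427907 in the CMT-U309 co-culture, and to between 96306 and 241438 in the other co-cultures. The mono-culture level was 931586 to 1217679 beside the other lines. Mono-cultured macrophages of the 5 co-cultures correlated at 0.979 to 0.992 across genes, and whether they are 1 culture is not stated. CD36, a scavenger receptor for fatty acids and lipoproteins, had -0.48 and -0.60 in CMT-U309. With CMT-U27, P114, CMT-W1 and CMT-W2 it was at -2.54, -5.45, -4.84 and -5.63, without overlap. Of all genes measured in all 5 co-cultures, 8.05% had both CMT-U309 arrays above all 8 others. TLR2 fell with -1.72 and -1.67, against -5.17 to -3.00, and ANPEP, a surface aminopeptidase of myeloid cells, had -0.93 and -1.39, against -5.48 to -3.01.

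Chemokine ligands rose in 8 of 13 in the CMT-U309 macrophages (13.0% of all genes) and 1 fell (8.0%). CCL20, which attracts lymphocytes and dendritic cells, rose with 4.68 and 4.88, CCL7 with 4.25 and 4.70, and CCL3 with 3.35 and 3.38. CCL13 was the member that fell, with -3.11 and -3.68. Of the 12 compared, 5 lay above the other co-cultures (15.1% of all genes). CCL2 had 1.14 and 1.09, against -0.03, -1.08, -5.03 and -4.32 with CMT-U27, P114, CMT-W1 and CMT-W2, and the monocyte attractant CCL8 had 0.53 and 0.59, against -0.52, -1.93, -4.93 and -4.37. MMP9, a gelatinase, had 0.88 and 1.00, against -4.10 to -0.74. For CCL2, CCL8 and MMP9 both CMT-U309 arrays were above the mono-culture and above all arrays of the other co-cultures. Of all genes measured in all 5 co-cultures, 8.05% had both CMT-U309 arrays above all 8 others. The 3 other MMP9 probes gave -0.21, 1.14 and -0.85, so the direction against the mono-culture differed between its probes, although each lay above the other co-cultures.

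Of the named genes, the largest difference in macrophages was on TFPI, the inhibitor of the tissue factor pathway. It rose with 3.06 and 3.34 with CMT-U309 and was at -1.64, -2.12, -2.89 and -2.38 with CMT-U27, P114, CMT-W1 and CMT-W2. The difference was 5.46 (SE 0.68, limma adjusted p = 0.646), and the groups did not overlap. Of all genes measured in all 5 co-cultures, 8.05% had both CMT-U309 arrays above all 8 others. The other probe of TFPI gave 3.77 in CMT-U309 and ranged from -1.93 to 2.66 in the other co-cultures. UCP1 rose with 4.73 and 4.99, against 3.29 with CMT-U27, -1.23 with P114 and 0.88 with CMT-W2, so it was highest in CMT-U309 in both sorted populations.

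The lowest ratios among genes with a symbol were on EDNRB, an endothelin receptor (-3.74 and -4.35), CD209 and MYH7, a muscle myosin heavy chain (-3.79 and -3.91). DHDH, a dehydrogenase, fell with -3.43 and -3.30. HSD11B1 was not well above background in the co-culture and was at least 4.50-fold lower than in the mono-culture. Below the range of the other co-cultures stood CEACAM1, an adhesion molecule, which fell with -2.19 and -2.38 against -0.40, 1.00, 0.11 and 0.39 with CMT-U27, P114, CMT-W1 and CMT-W2. CGN, the tight junction protein cingulin, had 0.59 and 1.78 against 3.27 to 6.86, but another of its probes gave 0.11, within the -0.05 to 3.03 of the others. ATP1B1, a subunit of the sodium pump, had -1.09 and -1.13 against 0.23 to 3.16. SLPI, a secreted protease inhibitor, had -0.51 and -0.07, with a mean only just below CMT-W2 and CMT-W1 at -0.19 and -0.15, and its other probe gave 1.36.

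In the macrophages limma compared 24393 genes and called 0 (0.00%), with 510 at an unadjusted p under 0.05 and a smallest adjusted p of 0.485. Of all genes, 15.1% lay above the other 4 co-cultures and 24.2% below, and the median difference was -0.13.

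**Figure D4:**
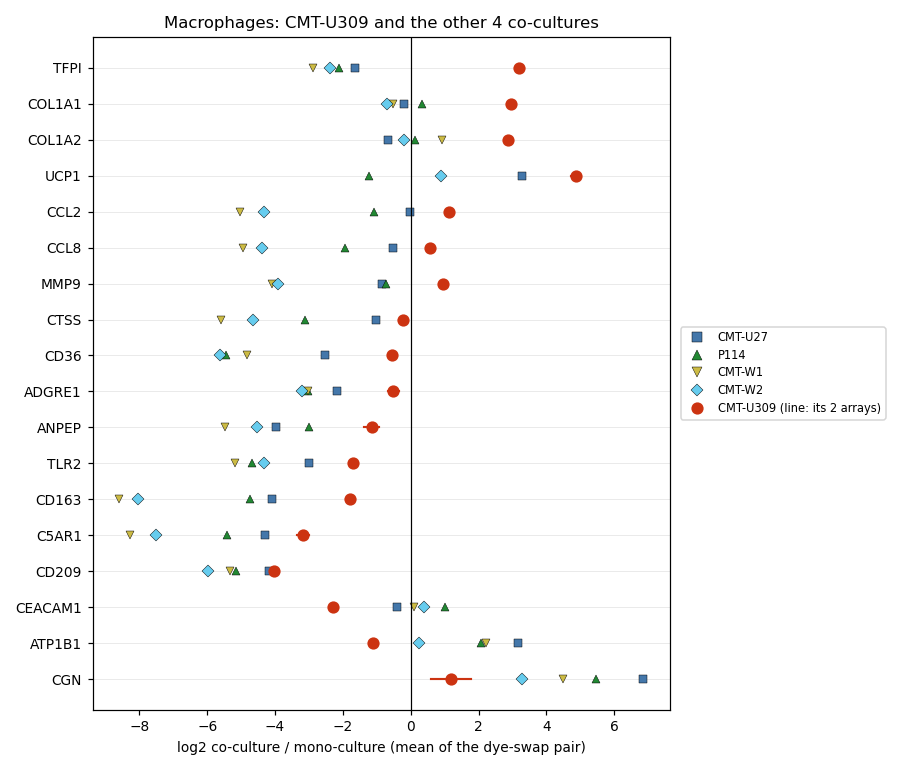
Mean log2 ratio of the dye-swap pair (x axis, co-cultured over mono-cultured cells) of 18 genes in the macrophages of the 5 co-cultures, with 1 symbol per co-culture and a horizontal line that spans the 2 arrays of CMT-U309. On the brightest probe of each gene, TFPI, COL1A1 and COL1A2 are at 2.87 to 3.20 with CMT-U309 and at 0.91 or below elsewhere (other COL1A1 and COL1A2 probes are higher there), and the macrophage markers CD163 and CTSS have their highest ratios with CMT-U309.

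The 2 populations sorted from the CMT-U309 co-culture were then set beside each other. Grown apart, the line and the macrophages had a Pearson correlation of 0.795 across the log2 levels of 15218 genes, and 3994 of these (26.2%) differed at least 3-fold. Sorted from the co-culture, they had a correlation of 0.984, and 230 genes (1.51%) differed at least 3-fold. The median absolute difference went from 0.89 to 0.38. In the other co-cultures the sorted populations correlated at 0.980 (P114), 0.951 (CMT-U27), 0.915 (CMT-W2) and 0.827 (CMT-W1), so CMT-U309 and P114 had the most alike pairs. With the Cy3 channels alone the CMT-U309 value was 0.986, and with the Cy5 channels alone, which include the array with many outlier marks, it was 0.974 with 14.4% of genes at least 3-fold apart. With outlier spots kept it was 0.972 over the 26542 genes well above background on these 4 arrays, of which 2273 (8.56%) were at least 3-fold apart. Those levels were not normalised between arrays. The marked spots, the gene set and the normalisation therefore all differ from the first comparison, and their parts were not tested.

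**Figure D5:**
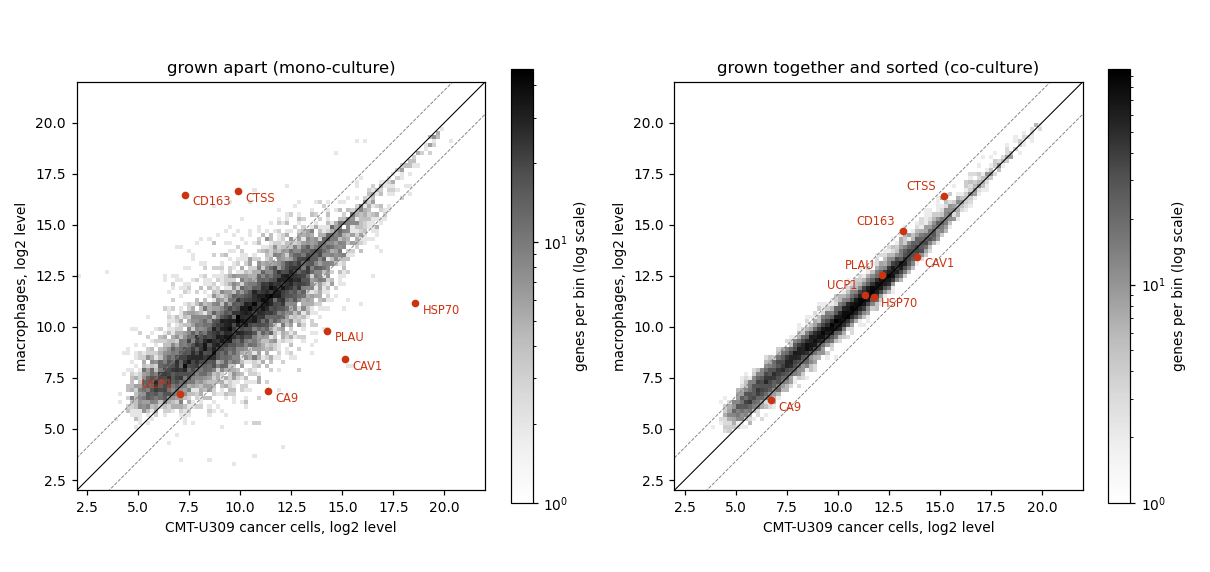
Log2 level of each gene in CMT-U309 cancer cells (x axis) and macrophages (y axis), grown apart (left) and sorted from the co-culture (right), as genes per bin on a log grey scale with the line of equal levels and dashed lines at 3-fold. The cloud narrows from a correlation of 0.795 to 0.984, and genes far from the line when grown apart, such as CD163 and HSP70, lie within the 3-fold lines after co-culture.

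Single genes show how the levels met. CD163 had a log2 level of 7.30 in the mono-cultured line and 16.47 in the mono-cultured macrophages, and of 13.18 and 14.69 in the sorted cancer cells and macrophages. HSP70 went from 18.56 and 11.16 to 11.75 and 11.47, close to the macrophage level in both. PLAU went from 14.24 and 9.82 to 12.19 and 12.53, and F3 from 17.37 and 13.50 to 15.90 and 16.14, both between the levels of the cells grown apart.

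Other genes ended outside both starting levels. UCP1 went from 7.06 in the line and 6.72 in the macrophages to 11.36 and 11.57, and TFPI from 8.54 in the line and 8.83 in the macrophages to 12.03 in the sorted macrophages and a level 0.03 lower in the sorted cancer cells. IL6 likewise went from 10.24 and 9.37 to 14.37 and 14.20. COL1A1 went from 9.69 and 8.57 to 11.09 and 11.53, and COL1A2 from 13.18 and 12.79 to 14.89 and 15.66. These genes were higher in both sorted populations than in either cell type grown alone.

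Of the 15218 genes, 77.5% were closer together in the sorted populations than in the cells grown apart. All 11 macrophage markers measured in both were closer, with a median difference (cancer cells minus macrophages) of -5.77 apart and of -1.21 after co-culture. For the 8 epithelial markers the median difference went from 2.87 to -0.21, with 7 closer, and for the 13 matrix and protease genes 12 were closer. The remaining distance was mostly on the side of the macrophages: CD163 was 1.51 and CTSS 1.21 lower in the sorted cancer cells on the log2 scale.

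Genes that separate the cell types in the other 4 co-cultures gave a measure for each sort. Of genes at least 16-fold higher in macrophages than in all other lines when grown alone, 285 could be followed in CMT-U309, and at the median they were at 1.54% of the macrophage mono-culture level in the mono-cultured line. They were at 15.8% in the sorted cancer cells and at 32.0% in the sorted macrophages. Of genes at least 16-fold higher in the lines, 71 could be followed. They were at 2.75% of the CMT-U309 level in the mono-cultured macrophages, at 88.8% in the sorted macrophages and at 74.7% in the sorted cancer cells.

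The 71 line genes thus stood about as high in the macrophage sort as in the cancer cell sort, while the 285 macrophage genes were lower in the cancer cell sort than in the macrophage sort. In the other co-cultures such line genes reached 94.8% of the line's level in the macrophages sorted from CMT-U27, 85.6% with P114, 46.7% with CMT-W1 and 26.2% with CMT-W2. In the sorted cancer cells they were at 25.8%, 81.3%, 74.4% and 60.5%. The macrophage genes stood at 67.7% in the cancer cells sorted from CMT-U27 and at 21.3% in its macrophages. With P114, CMT-W1 and CMT-W2 they were at 6.5%, 4.1% and 11.8% against 7.1%, 8.2% and 11.6%. In CMT-U27 each gene set was thus higher in the sort of the other cell type. CMT-U27 is still among the co-cultures compared with CMT-U309, and whether its sorts were exchanged or mixed was not tested. The sorts of the series were made on the CMTMR stain. How much of these values comes from cells or RNA of the other type within a sort was not tested, and it cannot be told apart from a change within the cells in these arrays.

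Across the 15218 genes, the CMT-U309 ratio in the cancer cells and that in its macrophages correlated at 0.379, against -0.161 to 0.062 in the other 4 co-cultures. These ratios have separate mono-cultures as controls, but both sorted populations come from the same co-culture. limma compared the macrophage minus the cancer cell ratio of CMT-U309 with that of the other 4 over 18867 genes and called 0 (0.00%), with 175 at an unadjusted p under 0.05.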

How the data were processed

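Canine RNA was hybridised to 20 two-colour Agilent arrays, in dye-swap pairs of 1 cell population and 1 co-culture. The authors deposited the scanner output of Agilent Feature Extraction 10.7.3.1, which holds the background-subtracted and dye-normalised signal intensity of each channel and, per the file headers, the log10 ratio of red over green. All ratios were given the same direction, co-cultured over mono-cultured cells, by the dyes in the labels, and set on the log2 scale. Turned ratios equal the deposited series values within 0.0001 on 100% of probes. Control spots and spots that the software marked as outliers in either channel were left out, and probes had to be well above background in at least 1 channel on both arrays of a pair. The 2 arrays of a pair were averaged as 1 replicate. Spots of 1 probe were averaged, and a gene with several probes was given by its brightest.

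Levels are log2 processed signals after Aquantile normalisation between arrays, averaged over both arrays of a pair. CMT-U309 (1 pair) was compared with the other 4 pairs by limma 3.58.1 in R 4.3.3, with Benjamini-Hochberg adjustment over all genes with at least 3 other pairs. The limma script was tested on simulated data. Alternatives were normexp (offset 50) with loess, median centring, other filters and folds, single dyes, slide or replicate blocks and leaving out each other pair. The named genes were the 8 highest and 8 lowest ratios in each population, the 5 largest differences each way outside the range of the other 4, and 2 to 4 members of each list by size of the CMT-U309 ratio. The members and gene lists were chosen with earlier results of these data known. Some genes that this rule names are not reported here, though the counts include them. Tables used Python 3.11.15, pandas 2.3.3 and numpy 2.4.6. Symbols came from RefSeq accessions of the probes. The number of arrays limits the precision.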

Additional observations from a re-analysis of the deposited data

Results flagged for a closer look

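In 9 of the 141 sets of gene and population, 1 co-culture lay far from the rest by Dixon's criterion, which chance meets in about 1 tested set in 20. Only sets measured in at least 4 co-cultures were tested, and how many of the 141 these are is not given. CMT-U309 was the distant co-culture in 6 of the 9, which the choice of genes favoured, since many were named for their CMT-U309 ratio or for lying outside the range of the other co-cultures. In the cancer cells these were COL1A1 (log2 ratio 1.40, nearest other line 0.16), COL1A2 (1.71, nearest -0.23), F2RL1 (-4.24, nearest -1.10) and OCLN (-3.39, nearest -0.18), the last pair of genes over 4 lines. In the macrophages they were COL1A1 (2.95, nearest 0.34) and TFPI (3.20, nearest -1.64). Type I collagen alpha 1 was therefore flagged in both sorted populations of the same co-culture. The other 3 were CD163 and IL1A in the cancer cells of CMT-W1 (2.11, nearest 5.88, and 2.36, nearest 5.61) and HSD11B1 in the macrophages of P114 (4.49, nearest -2.10).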

How the results depend on the processing

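The comparisons of CMT-U309 with the other 4 co-cultures called 0 genes at an adjusted p under 0.05 under each alternative except no filter on dim probes, which called 19 in the cancer cells and 24 in the macrophages, all higher in CMT-U309. Of these, 18 and 24 were not tested otherwise and none had a symbol. Leaving out each other pair in turn gave 0 to 0 calls in every comparison. Replicate numbers go with the dye orientation in the cancer cells, while in the macrophages CMT-U27 has them the other way round. The fits with the replicate number as a replicate block also called 0, with 2001 genes at an unadjusted p under 0.05 in the cancer cells, 632 in the macrophages and 79 in the mono-culture levels. The 3613 genes at least 3-fold changed on both arrays of the CMT-U309 cancer cells became 1935 with normexp and loess, 7409 at 2-fold, 2155 at 4-fold and 7901 on the Cy3 array alone, a setting chosen after seeing the data. The 5645 of the macrophages became 2426 with normexp and loess, 10924 at 2-fold (48.7% of them up) and 3631 at 4-fold (70.3% up). Of the single values, 711 differences kept their direction, and their size was not compared. The CCL13 difference in the macrophages turned with normexp and loess (-0.059). Of the ratios, 773 stayed within the spread of 1 array and 149 moved by more. A turned ratio was counted only for genes past 3-fold on both arrays. That was met by SERPINH1 in the macrophages, by 1 of its 2 other probes (-0.10). Sign changes of smaller ratios, such as MMP9 between its probes in the macrophages, are not counted as turned. The cause was not tested. Ratios of probes that were dim in 1 channel are bounds, which limits what signal over background allows.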
